A study of Mus musculus with 8 samples.

Results

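The hepatocyte lineage transcription factors examined here are Foxa1, Foxa2, Foxa3, Hnf4a, Onecut1, Onecut2, Cebpa and Prox1, taken by name from the platform annotation. Each of the 8 genes had 1 transcript cluster, the unit for which the array gives a value, and none of these clusters carried a second gene symbol. They are 8 of 22180 genes with a cluster of their own and 8 of 41345 clusters in all. Affymetrix MoGene 2.0 ST arrays were run on RNA of AML12 cells stably expressing Zfp125, a zinc finger protein, and of AML12 cells carrying the empty vector (EV), on 4 arrays each. The AML12 line was derived from hepatocytes of a mouse transgenic for human transforming growth factor alpha. Both groups were selected with G418 and held in control medium, and the labels give no further difference between them. Whether replicates came from different cultures or from different selected populations is not in the labels. The p-values therefore rest on a spread that may be technical. Values of Zfp125 are not analysed here, so no check of the labels against it was made.

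Liver cells acquire and keep their identity through a small set of transcription factors that bind each other's genes. The FOXA proteins are forkhead factors that can open closed chromatin at liver enhancers, and HNF4A is a nuclear receptor needed for most hepatocyte functions. ONECUT1 (HNF6) and ONECUT2 are cut-homeodomain factors of early liver and bile duct development, C/EBPA is a basic leucine zipper factor of metabolic genes and growth arrest, and PROX1 is a homeodomain factor of hepatoblasts that can repress HNF4A and NR5A2.

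The promoters of Foxa1 and Hnf4a are shown because these genes had the smallest p-values among the factors on the higher and the lower side. They are the RefSeq promoter windows of the GRCm38.p6 build, from 250 bases before to 50 bases after an annotated start, on the strand of the gene. Capitals mark matches, on either strand, to a FOXA motif (TGTTTAC) in Foxa1 and to an ONECUT motif (ATCAATA) in Hnf4a. Hnf4a has an upstream and a downstream annotated start, its array cluster does not say which was used, and the upstream window, which holds the match, is printed.
Foxa1 (chr12:57546062-57546361, minus strand): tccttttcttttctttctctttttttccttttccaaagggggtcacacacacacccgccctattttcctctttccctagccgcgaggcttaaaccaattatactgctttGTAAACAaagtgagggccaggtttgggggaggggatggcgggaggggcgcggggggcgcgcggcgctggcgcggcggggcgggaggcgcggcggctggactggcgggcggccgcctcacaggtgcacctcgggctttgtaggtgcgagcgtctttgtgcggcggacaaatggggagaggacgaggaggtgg
Hnf4a, upstream start (chr2:163506607-163506906, plus strand): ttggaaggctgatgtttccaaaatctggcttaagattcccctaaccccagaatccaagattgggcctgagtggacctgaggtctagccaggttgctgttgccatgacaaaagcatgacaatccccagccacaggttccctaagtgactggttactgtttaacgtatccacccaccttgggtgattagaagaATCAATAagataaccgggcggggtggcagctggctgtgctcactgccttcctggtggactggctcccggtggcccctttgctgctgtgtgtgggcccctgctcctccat
The FOXA match of Foxa1 begins 141 bases before the start. The ONECUT match of the upstream Hnf4a window begins 59 bases before its start. The downstream Hnf4a window, not printed, had no match to any of the letters searched. Of 32851 promoter windows of this length, 3.65% hold the FOXA letters and 2.05% the ONECUT letters. HNF4 (CAAAGTCCA, in 0.475% of windows) and C/EBP letters (TTGCGCAA, in 0.183%) were searched too and had no match in the 11 windows searched, which cover 7 of the 8 genes. Onecut2 was left out of the search, so nothing is known here about motifs in its promoter. Foxa2 has an ONECUT match in 1 of its 3 windows, 214 bases before the start. A match describes the letters only, and no match says only that these letters are not in the window.

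In Zfp125 cells 2 of the 8 factors rose, Foxa1 and Onecut2, and none passed the test as lower (limma, adjusted p under 0.05 over 22180 genes). The same test called 1.08% of all genes, 0.446% as higher and 0.636% as lower. Foxa1 alone was called when any 1 array other than EV replicate 1 was omitted. The factors did not move one way: 4 had a change above 0 and 4 below 0, with a median of -0.11 on the log2 scale, against -0.0027 for all genes. For 6 of them the 4 Zfp125 arrays did not overlap the 4 EV arrays, 3 higher and 3 lower, where 7.29% of all genes were separated in this way (3.71% higher, 3.58% lower). At an unadjusted p under 0.05 there were 7 of 8 factors and 10.9% of all genes. The members were chosen with earlier results of these data known, so these counts are descriptions. All 8 clusters lay above the median level of all clusters, 4.34, between percentiles 81.1 and 97.6. Above that median were 13197 of the 22180 genes.

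**Figure D1:**
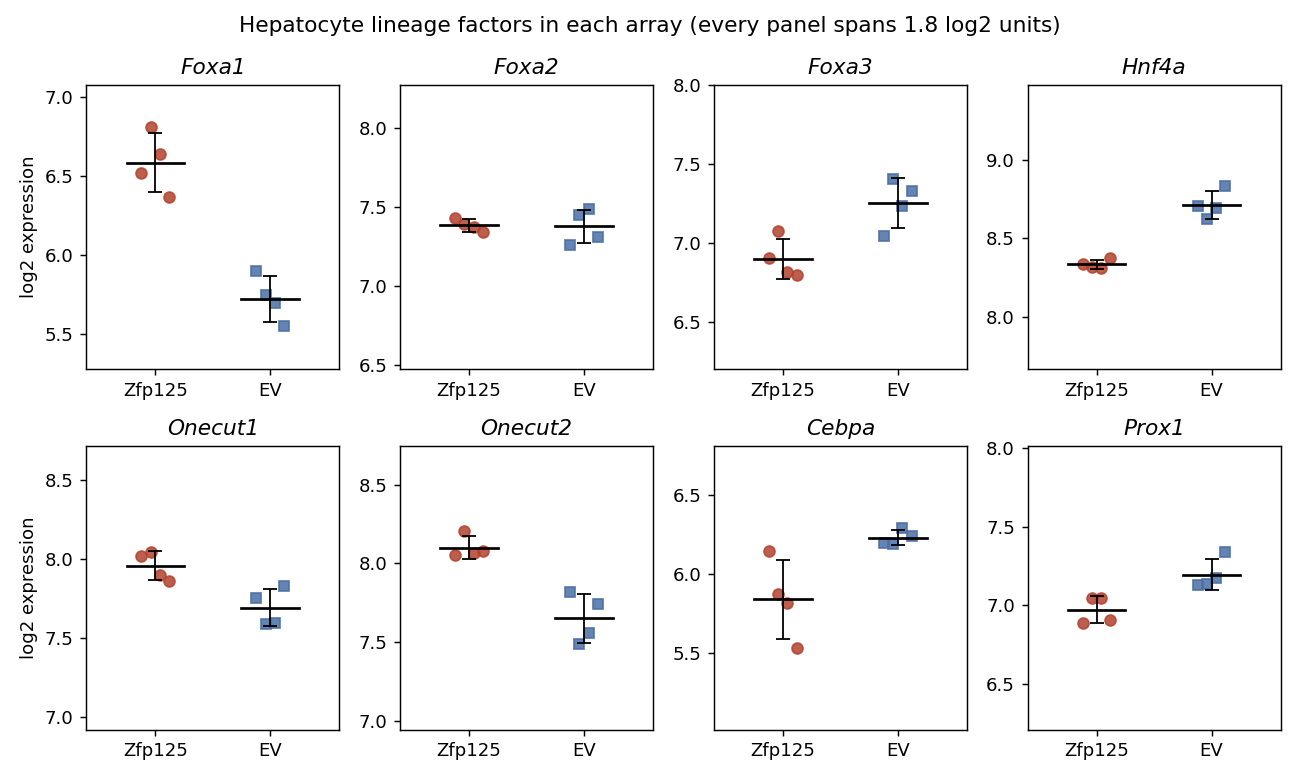
Deposited log2 expression of the 8 factors, with 1 point per array (circles, Zfp125; squares, EV), the group mean as a line and the SD as bars, n = 4 in each group. Foxa1 lies between 6.37 and 6.81 in Zfp125 cells and between 5.55 and 5.90 in EV cells, while the Foxa2 groups overlap. Vertical axes differ in position but not in span.

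Foxa1, a forkhead factor of liver specification, had log2 values of 6.52, 6.81, 6.64 and 6.37 in Zfp125 cells, against 5.90, 5.74, 5.69 and 5.55 in EV cells. The lowest Zfp125 array was 0.47 above the highest EV array. The mean was 6.58 ± 0.19 in Zfp125 cells and 5.72 ± 0.15 in EV cells (SD, n = 4 each). Foxa1 rose by 0.86 ± 0.11 on the log2 scale (standard error), which is 1.82-fold, with a 95% interval of 1.54- to 2.15-fold and an adjusted p of 0.00179 from limma. It ranked 35th of 22180 genes by p. With 1 array omitted at a time the call held in 8 of 8 cases, with changes of 0.79 to 0.94 and adjusted p-values up to 0.00917. It ended when the variances were not moderated across genes (adjusted p = 0.0819).

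Foxa2, the forkhead factor that also acts in bile acid and lipid metabolism of the adult liver, had values of 7.43, 7.39, 7.37 and 7.34 in Zfp125 cells. In EV cells it had 7.26, 7.45, 7.49 and 7.31. The Zfp125 values lay within the range of the EV values. The change was 0.0064 ± 0.088 (limma, adjusted p = 0.992), and its 95% interval covered 0.881- to 1.15-fold, which leaves out a rise of the size of Foxa1.

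Foxa3, the forkhead factor most tied to glucose and lipid genes of the mature liver, had values of 6.91, 7.08, 6.82 and 6.80 in Zfp125 cells. In EV cells it had 7.04, 7.40, 7.23 and 7.33. Zfp125 replicate 2 lay above the lowest EV array and the other 3 Zfp125 arrays lay below all EV arrays. The change was -0.35 ± 0.10 and did not pass the test (limma, adjusted p = 0.173).

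Because the forkhead factors share a DNA-binding domain, the difference between their log2 values within each array was compared between the groups. This difference was set against itself across groups, since levels of different probes cannot be compared. Foxa1 relative to Foxa2 was 0.86 ± 0.13 higher in Zfp125 than in EV cells, and relative to Foxa3 it was 1.22 ± 0.15 higher (standard errors, n = 4 each). Foxa2 relative to Foxa3 was 0.36 ± 0.09 higher in Zfp125 cells. In each of these 3 pairs every Zfp125 array lay above every EV array, with an exact two-sided permutation p of 0.0286, the smallest that 70 assignments allow, and an adjusted p of 0.0381 over 4 pairs. When 1 array was left out, the adjusted exact p-values went up to 0.0571 for both Foxa1 pairs and to 0.0762 for Foxa2 relative to Foxa3, each above the threshold in 3 of 8 omissions. The differences themselves stayed between 0.79 and 0.96, 1.13 and 1.35, and 0.31 and 0.42.

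**Figure D2:**
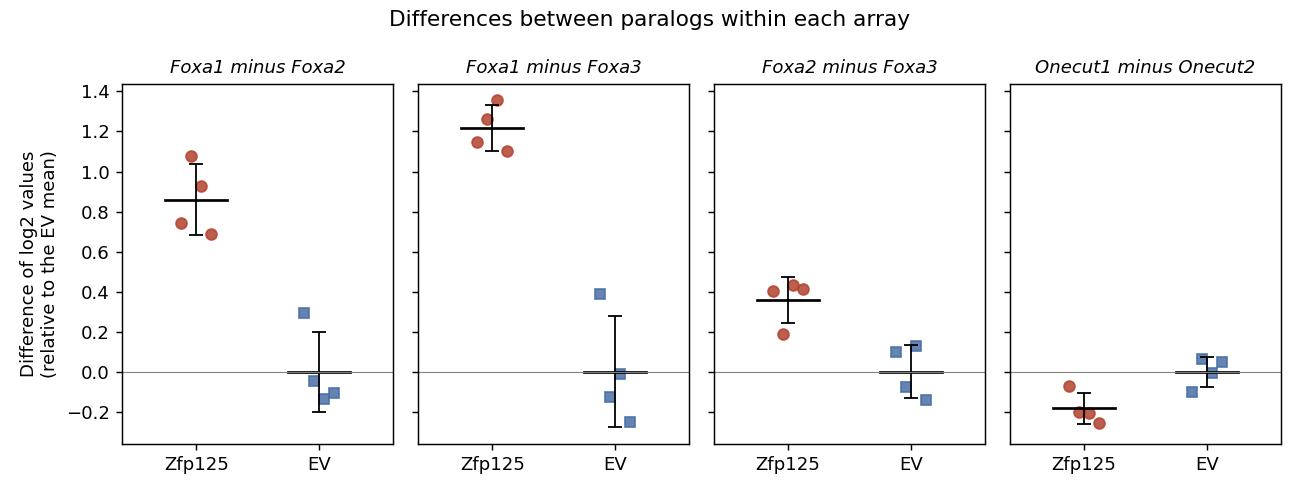
Difference of the log2 values of 2 paralogs within each array, shifted so that the EV mean is 0, with 1 point per array (circles, Zfp125; squares, EV), the mean as a line and the SD as bars. The 4 Zfp125 arrays lie above the 4 EV arrays in the 3 Foxa pairs and overlap them in the Onecut pair.

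Onecut2 had values of 8.05, 8.21, 8.07 and 8.08 in Zfp125 cells, against 7.82, 7.49, 7.56 and 7.74 in EV cells. The groups were 0.24 apart, and Zfp125 replicate 2 stood above the other 3 arrays of its group. The mean was 8.10 ± 0.07 in Zfp125 cells and 7.65 ± 0.15 in EV cells (SD, n = 4 each). Onecut2 rose by 0.45 ± 0.10, or 1.37-fold, with a 95% interval of 1.18- to 1.58-fold and an adjusted p of 0.0455 from limma. This call lies close to the threshold: it held without EV replicate 1 (adjusted p = 0.0415) and ended when any of the other 7 arrays was omitted (adjusted p up to 0.15). Median centring likewise ended it (adjusted p = 0.0622), as did testing every cluster of the table (0.152), omitting moderation (0.144) and a replicate block (0.111).

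Onecut1, which encodes HNF6, had values of 8.02, 8.05, 7.90 and 7.86 in Zfp125 cells, against 7.75, 7.59, 7.59 and 7.83 in EV cells. The groups were apart by 0.033 only, with the change of 0.27 ± 0.09 short of the threshold (limma, adjusted p = 0.284). Its 95% interval was 1.04- to 1.38-fold. Onecut1 relative to Onecut2 differed by -0.18 ± 0.05 between Zfp125 and EV cells, which did not pass (exact permutation, two-sided, n = 4 each, adjusted p = 0.0571).

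Hnf4a had the smallest p of the 4 factors with a change below 0. Its values were 8.34, 8.32, 8.31 and 8.38 in Zfp125 cells, against 8.70, 8.62, 8.70 and 8.84 in EV cells. The groups were 0.25 apart and the Zfp125 arrays were close together, with an SD of 0.03 against 0.09 in EV cells. The change was -0.38 ± 0.09, a ratio of 0.77 with a 95% interval of 0.678 to 0.875, and narrowly missed the threshold (limma, adjusted p = 0.0562). It passed with quantile normalization again (adjusted p = 0.0485), with clusters above the 25th percentile (0.0403) or the median level (0.0191) and with a trended, robust prior (0.00327). With 1 array omitted it passed in 0 of 8 cases, with changes of -0.41 to -0.34 and an adjusted p between 0.0747 and 0.161.

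Cebpa had values of 6.15, 5.87, 5.82 and 5.54 in Zfp125 cells, against 6.20, 6.19, 6.29 and 6.25 in EV cells. All Zfp125 arrays lay below the EV arrays, the nearest by 0.047, and they were further from each other than the EV arrays were. The change of -0.39 ± 0.12 was as large as that of Hnf4a but did not pass (limma, adjusted p = 0.176), with SDs of 0.25 in Zfp125 and 0.05 in EV cells. With 1 array omitted it ranged from -0.49 to -0.29 and passed in 0 of 8 cases.

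Prox1 had values of 6.89, 7.05, 7.05 and 6.91 in Zfp125 cells, against 7.13, 7.14, 7.17 and 7.34 in EV cells. The groups were apart by 0.079. The change was -0.22 ± 0.09, with a 95% interval from 0.75 to 0.983 as a ratio and an adjusted p of 0.379 from limma.

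**Figure D3:**
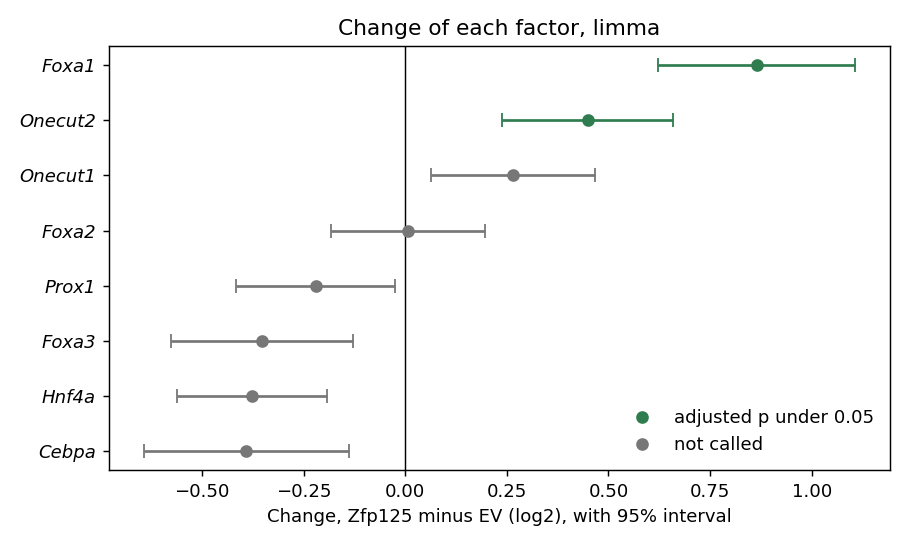
Change of each factor between Zfp125 and EV cells on the log2 scale from limma (points) with its 95% interval (bars), 4 arrays in each group. Foxa1 and Onecut2 passed the test, the interval of Foxa2 is centred near 0, and the other 5 intervals leave out 0 without adjustment for the number of genes tested.

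The genes whose values most resembled those of the 2 called factors across the 8 arrays were taken from 13197 genes above the median level. For Foxa1 these were Ddx5, an RNA helicase (Pearson's r = 0.98), Aplp2, a relative of the amyloid precursor protein (0.977), and Slc6a6, the taurine transporter (0.975). For Onecut2 they were Lipa, lysosomal acid lipase (0.987), Porcn, the acyltransferase of Wnt ligands (0.986), and Shank2, a scaffold protein (0.985). The arrays share a group difference, and the highest of so many correlations over 8 arrays is a description only. Of these genes, Aplp2 rose by 0.59 ± 0.09 (limma, adjusted p = 0.00619), Shank2 by 0.50 ± 0.10 (0.0349) and Slc6a6 by 0.42 ± 0.09 (0.0429).

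Measured genes next to the factors on the chromosome, 2 on each side by the RefSeq gene order, gave no call in the test used for the factors. Of 32 such neighbours 0 passed (limma, adjusted p under 0.05), with changes from -0.32 to 0.23. Beside Foxa1, the somatostatin receptor gene Sstr1 had a change of 0.19 ± 0.12 and the nearest measured gene on the other side, Gm2568, of -0.04 ± 0.10. Beside Hnf4a, Ttpal, a gene for a tocopherol transfer protein relative, had a change of -0.32 ± 0.10 with groups that did not overlap (limma, adjusted p = 0.208). The antisense gene Hnf4aos had a change of 0.02 ± 0.13. Cebpg, a basic leucine zipper gene beside Cebpa, had a change of 0.01 ± 0.09.

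Among paralogs of the factors, 0 of 16 measured genes passed the test, with a median change of 0.03. At an unadjusted p under 0.05 there were 2 of them. These were Foxo1, a forkhead factor of the insulin response, with a change of -0.27 ± 0.10, and Cebpb, the C/EBP of the acute phase and regeneration, with -0.20 ± 0.09 (limma, adjusted p = 0.274 and 0.392). Among other liver-enriched transcription factors, 2 of 28 fell and 0 rose, with a median change of -0.08, where 0.636% of all genes fell. Mlxipl, the carbohydrate response factor ChREBP, had means of 7.37 ± 0.14 in Zfp125 cells and 7.97 ± 0.09 in EV cells (SD, n = 4 each; limma, adjusted p = 0.0101). Atf5, a stress-induced leucine zipper factor abundant in liver, fell by 0.44 ± 0.09 (limma, adjusted p = 0.0433). When 1 array was omitted, 1 gene of this list was called, except without EV replicate 2, where 2 were.

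Of 21 measured cofactors and binding partners 0 passed the test, 5 had an unadjusted p under 0.05 and the median change was 0.09. The lowest p-values belonged to Tle3 and Tle2, Groucho-type corepressors that FOXA proteins can bind. Tle3 had means of 6.76 ± 0.09 in Zfp125 cells and 6.40 ± 0.17 in EV cells, with an adjusted p of 0.159 from limma (SD, n = 4 each). Tle2 had means of 6.14 ± 0.08 in Zfp125 cells and 5.74 ± 0.24 in EV cells, with an adjusted p of 0.161 from limma. Without EV replicate 1, 1 gene of this list was called. Of 13 genes linked to Prox1, 1 fell, the cyclin Ccnd1, where 0.636% of all genes fell. The call of Ccnd1 ended without EV replicates 1 or 3 or Zfp125 replicates 1, 2 or 3. Nr5a2, the nuclear receptor LRH-1, had a change of -0.42 ± 0.10 and groups that did not overlap (limma, adjusted p = 0.0889).

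Genes listed from textbook knowledge as targets of these factors fell more often than they rose. The part of the factors in these changes was not tested. Of 45 distinct measured targets in 4 lists, 13 fell and 1 rose, with a median change of -0.17. Over all 22180 genes, 0.636% fell and 0.446% rose, the median change was -0.0027 and 11260 had a change below 0. The lists overlap, with 12 genes in more than 1 of them, and earlier results had shown that several liver products were lower. Of 22 HNF4A targets, 5 fell and 0 rose, with a median of -0.16 and changes below 0 in 20. They were the apolipoproteins Apoc2, Apoc3, Apoa1 and Apoh and the protease inhibitor Serpina1c. Apoc3, an inhibitor of lipoprotein lipase, had means of 6.06 ± 0.09 in Zfp125 cells and 6.63 ± 0.04 in EV cells (SD, n = 4 each; limma, adjusted p = 0.00537). Leaving out EV replicates 1 or 4 or Zfp125 replicates 1, 2 or 3 brought this count to 3.

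Against 0.636% of all genes lower, 4 of 15 FOXA targets fell and 0 rose, with a median of -0.15, while Foxa1 itself rose. They were Igfbp1, a binding protein of insulin-like growth factors, Tat, the tyrosine aminotransferase, Alb and Serpina1c. Igfbp1 had means of 5.43 ± 0.24 in Zfp125 cells and 6.61 ± 0.10 in EV cells (SD, n = 4 each; limma, adjusted p = 2.63e-04). The count was 2 without EV replicate 4 or without Zfp125 replicates 1 or 2. The thyroxine carrier gene Ttr, whose promoter was used to isolate the FOXA proteins, had means of 12.66 ± 0.14 in Zfp125 cells and 12.58 ± 0.08 in EV cells (SD, n = 4 each; limma, adjusted p = 0.836).

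Against 0.636% of all genes lower and 0.446% higher, 7 of 18 C/EBPA targets fell and 1 rose, with a median of -0.38. Those that fell were Saa3, Hp, Tat, Pcx, Hamp, Adh1 and Alb, which include acute phase and metabolic genes. Hamp lay below the median level of all clusters in both groups, with means of 3.04 in Zfp125 and 3.97 in EV cells. Adh1, an alcohol dehydrogenase, had means of 4.70 ± 0.32 in Zfp125 cells and 5.53 ± 0.15 in EV cells (SD, n = 4 each; limma, adjusted p = 0.0137). The glucose transporter gene Slc2a2 rose, with means of 10.37 ± 0.14 in Zfp125 cells and 9.92 ± 0.08 in EV cells. The number called in this list was 5 without Zfp125 replicate 1 and 6 to 9 in the other omissions. Of 9 Onecut targets only Tat changed, and the list median was -0.02. Itgb1, an integrin beta chain with the next smallest p, had a change of 0.35 ± 0.12 and groups that did not overlap (limma, adjusted p = 0.233). Without moderation 0 FOXA and 0 Onecut targets were called.

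**Figure D4:**
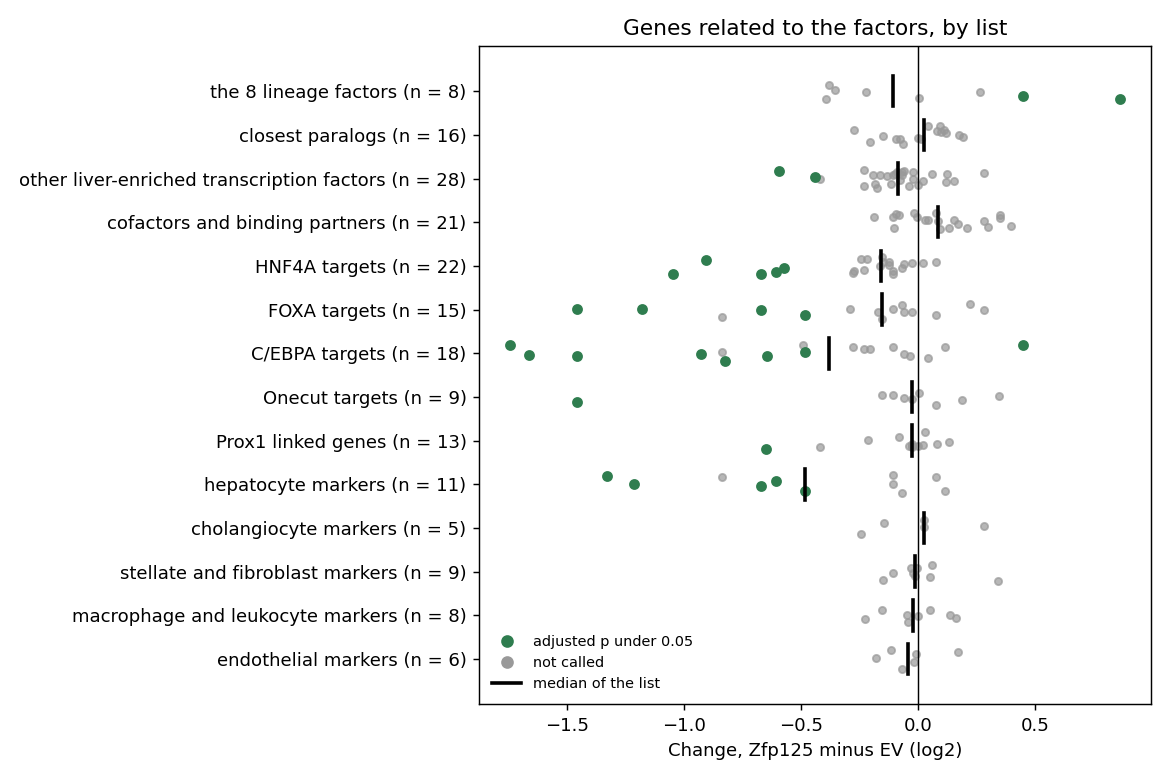
Change between Zfp125 and EV cells on the log2 scale for each measured gene of each list (points), with genes past the test in green and the list median as a bar. Medians lie near 0 for paralogs and for markers of other cell types and at -0.38 for C/EBPA targets and -0.48 for hepatocyte markers, the lowest of the lists drawn.

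The labelled cell type was checked against hepatocyte markers. Of 11 measured markers, 10 lay above the median level of all clusters, as 13197 of 22180 genes did. The mean log2 level of the 11 markers was 8.22 to 8.60 over the Zfp125 arrays and 8.69 to 8.94 over the EV arrays. Their median change was -0.48, the lowest of the lists examined. Where 0.636% of all genes fell, 5 of these markers did. Alb, Serpina1c and Apoa1 are 3 of them that were already counted among the targets above. The other 2 were in no target list: Fgb, the fibrinogen beta chain, had means of 7.90 ± 0.32 in Zfp125 cells and 9.11 ± 0.20 in EV cells (SD, n = 4 each; limma, adjusted p = 0.00122). Ahsg, the gene of fetuin A, had means of 9.06 ± 0.52 in Zfp125 cells and 10.39 ± 0.14 in EV cells (SD, n = 4 each; limma, adjusted p = 0.00537). The count was 2 without EV replicate 4 or Zfp125 replicates 1 or 2, 3 without EV replicates 1 or 3 or Zfp125 replicate 3, and 6 without Zfp125 replicate 4. With all arrays, 6 hepatocyte markers did not pass the test. Cps1 had a change of -0.84 ± 0.20 (limma, adjusted p = 0.0656). Changes were 0.08 ± 0.10 for Ttr, -0.07 ± 0.09 for Apob and 0.12 ± 0.11 for Asgr1. They were -0.11 ± 0.11 for Serpina1a and -0.10 ± 0.10 for Serpina1b. In whole cultures, fewer cells of a type and less RNA per cell cannot be told apart. Of 28 measured markers of cholangiocytes, stellate cells and fibroblasts, leukocytes and endothelial cells, 0 passed the test, where 1.08% of all genes did. Below the median level were 2 of 5 cholangiocyte, 3 of 9 stellate and fibroblast, 4 of 8 leukocyte and 3 of 6 endothelial markers. The mean level of the 5 cholangiocyte markers was 6.11 to 6.31 in Zfp125 and 6.15 to 6.27 in EV arrays. Among them Sox9, a biliary and progenitor factor, had a change of 0.28 ± 0.09, with groups that did not overlap (limma, adjusted p = 0.204). Cftr, the chloride channel of bile duct cells, had a change of -0.24 ± 0.11 (limma, adjusted p = 0.461). Krt19, a bile duct keratin, had a change of -0.14 ± 0.11. Of the 5 cholangiocyte markers 3 lay above the median level. Their means in Zfp125 and EV cells were 10.04 and 9.75 for Sox9, 8.01 and 8.15 for Krt19, and 6.37 and 6.34 for the keratin Krt7. Cftr and the epithelial adhesion gene Epcam were below the median level in both groups. The smallest p-values of the other marker lists belonged to Des (0.34 ± 0.13) and Col1a2 (-0.15 ± 0.11) of stellate cells and fibroblasts. Those of leukocytes were Csf1r (-0.22 ± 0.11) and Cd68 (0.16 ± 0.10), and those of endothelial cells Tek (0.17 ± 0.09) and Cdh5 (-0.18 ± 0.15), with limma adjusted p-values of 0.304 to 0.729 over these 6 genes. The part of the lower hepatocyte markers in the changes of the factors was not tested.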

How the data were processed

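RNA of 8 AML12 samples (4 Zfp125, 4 EV, grouped by the labels) was measured on arrays. The deposited values are log2 expression values made by the authors with Affymetrix Expression Console and Transcriptome Analysis Console, per the submitters' processing notes. That they are log2 was inferred from the deposited values, whose array medians were 4.32 to 4.37. For background and normalization, the method is not stated in the labels. Nothing was normalized again, and the number of arrays limits the precision. Clusters were named through the platform annotation and the GRCm38.p6 RefSeq table. The cluster with the highest mean represented each of 22180 genes with a cluster of 1 symbol.

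The gene test was limma 3.58.1 (R 4.3.3; lmFit, eBayes) with Benjamini-Hochberg adjustment over all genes, two-sided, and no block. Pairs of paralogs were compared by exact permutation over 70 assignments. On simulated data for this comparison over 22180 genes, recovery was 56% for a log2 change of 0.5, 97% for 1 and 100% for 2, with 12 false calls among 187. Alternatives covered normalization, dim clusters, moderation, array weights, clusters, the replicate block and leaving out arrays. The named genes are the 8 factors, the changed genes and the 2 smallest p-values of each list, and 3 look-alikes of each of 2 factors. Ttr, Krt19, Krt7, Epcam, the hepatocyte markers that did not pass and the chromosomal neighbours were chosen after their values were seen. So were the promoter motifs. The members and lists were chosen with earlier results of these data known.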

Additional observations from a re-analysis of the deposited data

Results flagged for a closer look

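In 1 of 16 sets of 4 arrays (8 factors in each group), 1 array stood apart by Dixon's criterion at the 95% level (0.829 for 4 samples). This was Onecut2 in Zfp125 cells, where replicate 2 had a log2 value of 8.21 and the gap to the next array was 0.858 of the range. About 5% of such sets exceed the criterion by chance. Without that array, the change of Onecut2 was 0.41 ± 0.11 (limma, adjusted p = 0.15).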

How the results depend on the processing

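Of the 8 factors, Foxa1 kept its call except without moderation (0.86, adjusted p = 0.0819). The values of Foxa2, which are near 0, turned sign with quantile normalization again (-0.0074), median centring (-2.75e-05) and array weights (-6.01e-04), and lay between -0.032 and 0.042 when 1 array was left out. Onecut2 lost its call with median centring (0.44), and at 0.45 without moderation, with every cluster tested and with the replicate block. When 1 array was left out, its change was 0.39 to 0.50. Hnf4a passed with quantile normalization again (-0.38) and, at -0.38, among clusters above the median or the 25th percentile level and with a trended, robust prior. That prior also called Foxa3 (-0.35).

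The number of called factors was 1 with median centring, every cluster tested and the replicate block, and 0 without moderation. It was 3 with quantile normalization again and among clusters above the median or the 25th percentile level, and 4 with the trended prior. It was 2 with array weights and with the mean of clusters, and 1 to 2 when 1 array was left out. The number of changed genes was 405 among clusters above the median level, 26 without moderation, 498 with the trended prior, 152 with the replicate block and 109 to 187 when 1 array was left out. With every cluster tested, 61 of 41345 clusters were called.

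Without moderation, 0 of the other liver-enriched factors, 1 HNF4A target, 0 FOXA targets, 2 C/EBPA targets, 0 Onecut targets, 0 genes linked to Prox1 and 0 hepatocyte markers were called. With every cluster tested, 0 of the other liver-enriched factors, 2 HNF4A, 2 FOXA and 4 C/EBPA targets, 0 genes linked to Prox1 and 1 hepatocyte marker were called. With the replicate block, 1 of the other liver-enriched factors and 0 genes linked to Prox1 were called. Among clusters above the median level 2 genes linked to Prox1 were called, as with the trended prior, which also called 1 cofactor and 1 cholangiocyte marker. When 1 array was left out, the numbers called were 1 to 2 for other liver-enriched factors, 0 to 1 for cofactors, 3 to 5 for HNF4A, 2 to 5 for FOXA and 5 to 9 for C/EBPA targets, 0 to 1 for genes linked to Prox1 and 2 to 6 for hepatocyte markers. The Foxa1 pairs ranged over 0.79 to 0.96 (against Foxa2) and 1.13 to 1.35 (against Foxa3), and Foxa2 against Foxa3 over 0.31 to 0.42.

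The labels do not say whether replicate numbers pair the arrays. Deviations from the group means of same-numbered arrays correlated at -0.05, -0.05, 0.04 and -0.01. The cause of each shift was not tested. The number of arrays limits the precision, and detection above background is unknown.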
